A study of Homo sapiens with 4 samples.

Results

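The ZFP36 proteins and 4 other RNA-binding proteins that act on short-lived mRNAs were followed through 6 h of morusin in a pair of prostate cancer cell lines. The set holds 7 genes of the 60617 Ensembl gene IDs measured, and its members were chosen by name: the 3 ZFP36 family genes ZFP36, ZFP36L1 and ZFP36L2, and the RNA binders ELAVL1, KHSRP, HNRNPD and ZC3H12A. Each of the 7 symbols matched 1 Ensembl ID. In PC3, ZFP36 mRNA was 5.13-fold and ZFP36L1 mRNA 2.48-fold higher with morusin (ratios of FPKM + 1), while in 22Rv1 both were slightly below their untreated level. ZFP36L2 was lower with morusin in both lines, and ELAVL1, KHSRP and HNRNPD differed by at most 0.30 log2 units in either line.

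ZFP36 proteins bind AU-rich elements, clusters of A and U in the 3′ untranslated region (3′ UTR) of mRNAs for cytokines, growth factors and immediate-early genes. They recruit deadenylases, which shorten the poly(A) tail, after which the mRNA is decapped or degraded from its 3′ end. ELAVL1 (HuR) binds similar elements and generally stabilizes the mRNA, KHSRP (KSRP) promotes decay, and HNRNPD (AUF1) has been linked to both outcomes. ZC3H12A (Regnase-1) is an endonuclease that cuts mRNAs at stem-loops, so it belongs to the same field without being a classical binder of AU-rich elements. ZFP36 itself is an immediate-early gene, and its own mRNA carries such an element.

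Expression was measured in 4 libraries of mRNA, 1 for each line and treatment. Morusin is a prenylated flavone from mulberry root bark. 22Rv1, an androgen receptor-positive prostate carcinoma line derived from a xenograft, was grown in RPMI and received 75 µM, and PC3, a line from a bone metastasis, was grown in F12 and received 46 µM. Both treatments lasted 6 h and each line has an untreated library. Dose and medium cannot be told apart from the line. With 1 library per group, a difference within a line has no replicate check, and no p-value is given for it.

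Levels are FPKM, fragments per kilobase of transcript scaled to each library's total. A change is the log2 of (morusin FPKM + 1) over (untreated FPKM + 1), and the added 1 makes it smaller for low genes. A gene was measured in a line at 1 FPKM or more in at least 1 of its libraries, and a 2-fold difference (1 log2 unit) was the size threshold. Depths estimated from the low values ranged from 19.1 M read pairs (treated 22Rv1) to 40.6 M (untreated PC3). The counting intervals below (95%, normal approximation on the log2 ratio of FPKM) follow from those depths and cover counting error only. They rest on rough estimates, since only 57 to 81 of the 1412 to 1539 low values in each library fell on the step taken as 1 pair. A further 41 to 58 fell on a step 2-fold smaller. If that step is 1 pair instead, the depths and pair numbers are too low and the intervals too wide. Of 5 luminal and androgen receptor markers, 5 reached 1 FPKM in both 22Rv1 libraries (summed level 660 and 665 FPKM) and 1 in both PC3 libraries (1.64 and 1.64). Leukocyte markers summed to at most 0.805 FPKM in 22Rv1. In PC3, 1 of 5 reached 1 FPKM, CD68 at 26.0 FPKM untreated and 39.9 with morusin, while the pan-leukocyte gene PTPRC was at 0.0520 and 0.0254. In bulk RNA, fewer cells with a transcript and less of it per cell cannot be told apart.

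The AU-rich heptamer TATTTAT is the core letter pattern bound by ZFP36 proteins, written in DNA letters, and the nonamer TTATTTATT is its extended form. Both were searched on the transcript strand in the 3′ UTR of 1 principal transcript per gene, from GENCODE 29 on GRCh38, with overlapping matches counted. ZFP36, ZFP36L1 and ZFP36L2 each held 3 heptamers, 1 of them within a nonamer. The stretches are shown because they are the features these 3 mRNAs share beyond their protein family. Capitals mark the heptamer, with 10 bases on each side. Those of ZFP36 lie on the plus strand of chromosome 19 and those of ZFP36L1 and ZFP36L2 on the minus strands of chromosomes 14 and 2.
ZFP36 at chr19:39409182-39409208: atgggcccttTATTTATgacgacttta
ZFP36 at chr19:39409197-39409223, within a nonamer: atgacgacttTATTTATtctaatatga
ZFP36 at chr19:39409222-39409248: gattttatagTATTTATatatattggg
ZFP36L1 at chr14:68788337-68788363: tatcaaaacgTATTTATtgccaaacta
ZFP36L1 at chr14:68788295-68788321: attttgttcaTATTTATcgggatgaca
ZFP36L1 at chr14:68788078-68788104, within a nonamer: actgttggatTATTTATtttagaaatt
ZFP36L2 at chr2:43223449-43223475, within a nonamer: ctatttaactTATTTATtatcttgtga
ZFP36L2 at chr2:43223401-43223427: gttcatactgTATTTATcaagtatgat
ZFP36L2 at chr2:43223213-43223239: ttgtatgtaaTATTTATttcattaatt

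In ZFP36 the 3 sites lie close together, starting 493, 508 and 533 bases after the stop codon in a 3′ UTR of 713 bases. In ZFP36L1 they start at 1180, 1222 and 1439 of 1871 bases, and in ZFP36L2 at 854, 902 and 1090 of 1917 bases. ELAVL1 held 5 heptamers in a 3′ UTR of 4904 bases, all close together and starting between bases 1604 and 1638, the last within a nonamer. That last site is shown because ELAVL1 is the only other member with the pattern, from the minus strand of chromosome 19.
ELAVL1 at chr19:7961829-7961855, within a nonamer: tttatgtattTATTTATtgaagtgtga

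No heptamer was found in the 3′ UTRs of KHSRP (764 bases), HNRNPD (1687 bases) and ZC3H12A (768 bases). Among 19124 3′ UTRs, 28.8% held at least 1 heptamer, 5.26% held 3 or more and 7.51% held a nonamer. Among the 7503 of 500 to 2000 bases, the range in which the 3 family members fall, 2.24% held 3 or more heptamers and 5.82% a nonamer. A match is a letter pattern and says nothing of binding in these cells.

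**Figure D1:**
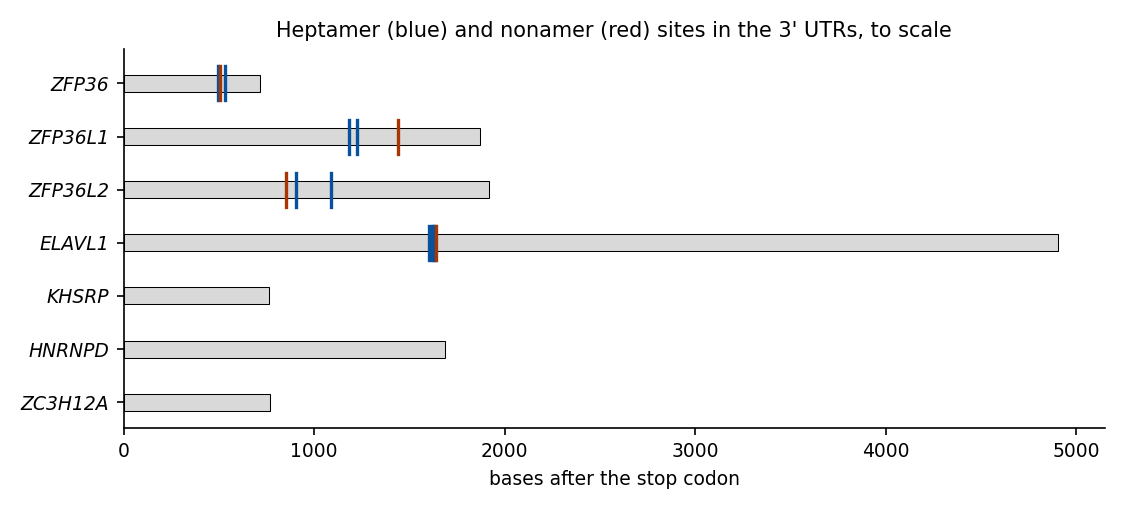
Positions of the heptamer (blue) and of heptamers within a nonamer (red) along the 3′ UTR of each member, drawn to scale in bases after the stop codon. The 3 family members carry 3 sites each, ELAVL1 carries 5 in a narrow stretch, and KHSRP, HNRNPD and ZC3H12A carry none.

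ZFP36 (ENSG00000128016, chr19:39406813-39409412, plus strand), which encodes tristetraprolin, was at 6.02 FPKM without and 5.54 with morusin in 22Rv1, and at 2.14 without and 15.1 with it in PC3. The treated PC3 library was the highest of the 4 and the untreated PC3 library the lowest, with both 22Rv1 libraries between them. In PC3 the log2 change was 2.36, and the ratio of FPKM without the added 1 was 7.06 (log2 ratio 2.82, counting interval 2.57 to 3.07, from an estimated 155 and 772 pairs). This change ranked 33 of 12898 genes from the highest. In 22Rv1 the change was -0.10, and the interval of the log2 ratio, -0.39 to 0.15, spans 0 on counting error alone. With 5 added in place of 1 the PC3 change was 1.49, still past 2-fold. Genes within 1.2-fold of the length of ZFP36 (1786 bases) had a median change of 0.10 in PC3 and 0.21 in 22Rv1.

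ZFP36L1 (ENSG00000185650, chr14:68787660-68796253, minus strand), the family member known for roles in development and in cell cycle exit, was at 26.9 FPKM without and 20.3 with morusin in 22Rv1. In PC3 it was at 21.0 FPKM without and 53.6 with it. The other 3 libraries lay close together, below the treated PC3 library. The change in PC3 was 1.31, with an FPKM ratio of 2.56 (log2 ratio 1.35, counting interval 1.29 to 1.42), and it ranked 92 of 12898 from the highest. In 22Rv1 the change was -0.39, in the other direction. Genes of similar length had medians of -0.06 in 22Rv1 and -0.07 in PC3.

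ZFP36L2 (ENSG00000152518, chr2:43222402-43226609, minus strand), best known from blood cell development, was at 21.2 FPKM without and 14.9 with morusin in 22Rv1, and in PC3 at 19.7 without and 13.4 with it. Both treated libraries lay below both untreated ones, and the changes were of like size, -0.48 in 22Rv1 and -0.52 in PC3. In 22Rv1 15.3% of all genes, and in PC3 14.2%, had a lower change. Genes of similar length had medians of -0.14 in 22Rv1 and -0.10 in PC3, also below 0. With the trend on transcript length removed, ZFP36L2 was at -0.41 in 22Rv1 and -0.39 in PC3. Its change did not pass the 2-fold size in either line.

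Of the RNA binders outside the family, 3 differed by at most 0.30 log2 units with morusin. ELAVL1 (ENSG00000066044, chr19:7958579-8005659, minus strand) was at 28.1, 26.0, 25.3 and 29.02 FPKM in untreated and treated 22Rv1 and untreated and treated PC3, the narrowest relative range of the 7 genes. KHSRP (ENSG00000088247, chr19:6413348-6424794, minus strand) was at 261, 274, 214 and 239 FPKM in the same order. HNRNPD (ENSG00000138668, chr4:82352498-82374503, minus strand) was at 232, 286, 96.2 and 109 FPKM. Its level was set apart by line, with both 22Rv1 libraries above both PC3 libraries. Changes in 22Rv1 were -0.11 for ELAVL1, 0.07 for KHSRP and 0.30 for HNRNPD, and in PC3 0.19, 0.16 and 0.18. With each library rescaled to the same FPKM sum, which lowered the median of all genes in 22Rv1 from -0.01 to -0.18, KHSRP in 22Rv1 was -0.13, and with the trend on transcript length removed ELAVL1 in 22Rv1 was 0.11, so neither sign was stable in that line.

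ZC3H12A (ENSG00000163874, chr1:37474552-37484379, plus strand) was at 0.681 and 0.708 FPKM in untreated and treated 22Rv1, below the level counted as measured, and at 5.51 and 8.80 FPKM in untreated and treated PC3. Both PC3 libraries were above both 22Rv1 libraries. The PC3 change was 0.59, with an FPKM ratio of 1.599 (interval of its log2, 0.52 to 0.84), and it ranked 451 of 12898 from the highest without passing 2-fold.

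**Figure D2:**
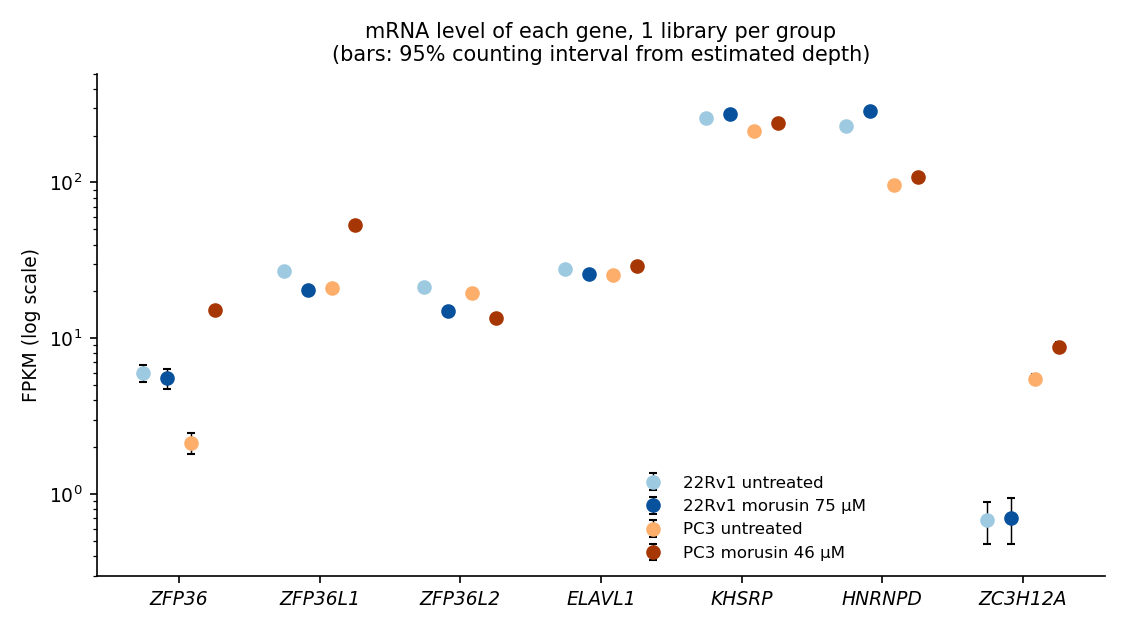
FPKM of each gene in the 4 libraries on a log axis, with 95% counting intervals from the estimated depths and no replicate error. ZFP36 and ZFP36L1 are highest in treated PC3 (15.1 and 53.6 FPKM), ZFP36L2 is lower in both treated libraries, and HNRNPD and ZC3H12A separate by line.

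In PC3, 2 of the 7 genes were at least 2-fold higher and 0 lower, where 1.22% of the 12898 measured genes were 2-fold higher and 2.64% were 2-fold lower (3.86% in either direction). Their median change was 0.19 against -0.05 over all genes. In 22Rv1, 6 of the 7 were measured and 0 passed 2-fold in either direction, where 3.4% of 13337 genes were 2-fold higher and 1.02% lower (4.42% in either direction), and the median was -0.10 against -0.01. Of the genes past 2-fold in 22Rv1, 76.9% were higher, but 41.1% after rescaling each library to the same FPKM sum and 57.7% with the trend on transcript length removed. The 2 genes past 2-fold in PC3 are both family members.

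The gap between the lines' responses, the PC3 change minus the 22Rv1 change, was 2.46 for ZFP36 and 1.70 for ZFP36L1. They ranked 15 and 32 of 11235 genes measured in both lines, of which 1.02% had a gap of 1 or more. For ZFP36L2 the gap was -0.04, smaller than its counting error (SE 0.0726 on the log2 ratio), and it turned to 0.05 after rescaling. It was 0.30 for ELAVL1, 0.09 for KHSRP and -0.12 for HNRNPD. For ZC3H12A it was 0.57, with 22Rv1 below 1 FPKM. A test of these gaps could not be run, since the 4 libraries leave 0 residual degrees of freedom.

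**Figure D3:**
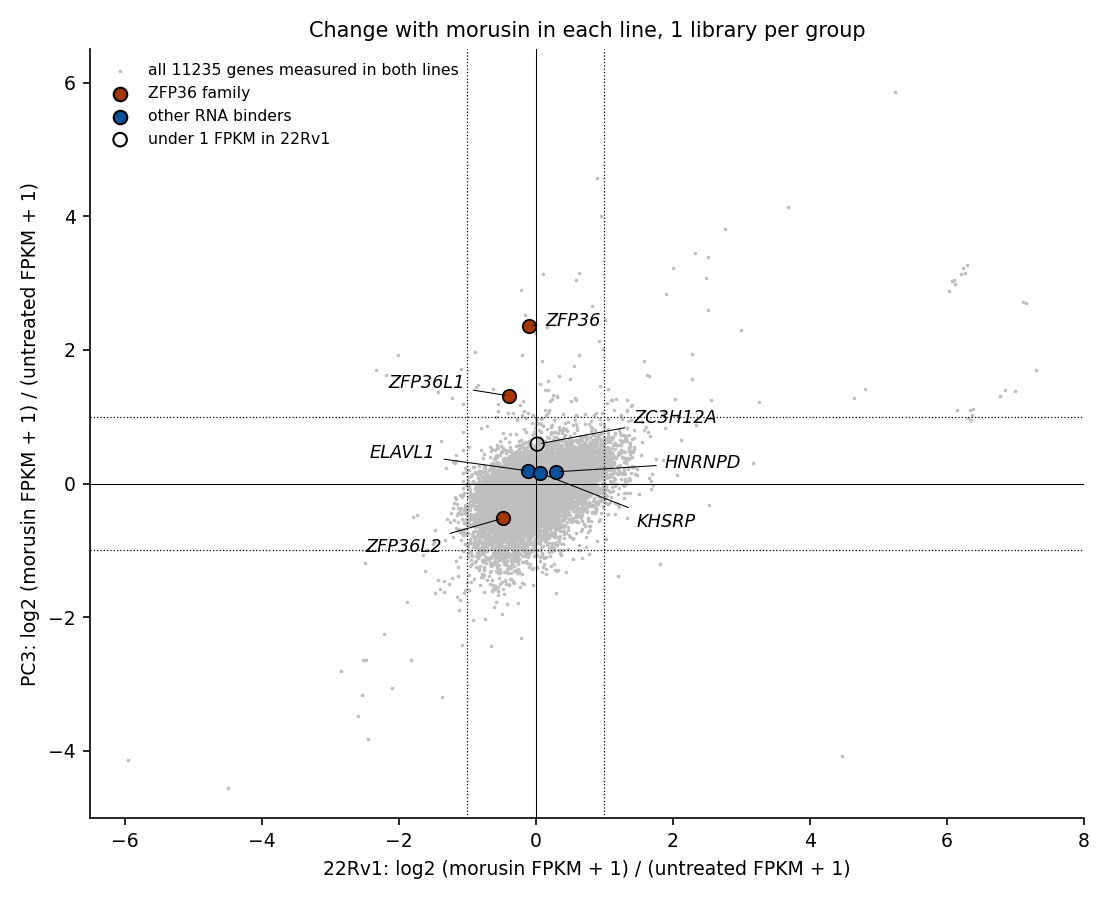
Change with morusin in 22Rv1 (horizontal) against PC3 (vertical), both in log2 of FPKM + 1, for the 11235 genes measured in both lines (grey) and the 7 genes (coloured; ZC3H12A, open, is below 1 FPKM in 22Rv1). Dotted lines mark 2-fold, and every measured gene is within the axes. ZFP36 and ZFP36L1 lie at or left of 0 in 22Rv1 and above the 2-fold line in PC3, and ZFP36L2 lies below 0 in both.

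A response common to both lines could be tested, with limma (a linear model of log2(FPKM + 1) that holds a line and a treatment term). For either term, the spread it uses comes from the gap between the lines' responses and from other genes, not from replicate libraries. Of 13971 genes, 79 (0.565%) passed an adjusted p of 0.05, 46 higher and 33 lower with morusin, and 0 of the 7 genes were among them. At an unadjusted p under 0.05 there were 2587 genes, among them ZFP36 and ZFP36L2. For ZFP36 the mean change was 1.13 (SE 0.464, limma adjusted p = 0.244), a mean over the 2 unlike responses above. For ZFP36L2 it was -0.50 (SE 0.198, limma adjusted p = 0.229), lower in 2 of 2 lines. ZFP36L1 had a mean of 0.46 and a limma adjusted p of 0.493. For ZC3H12A and HNRNPD the means were 0.31 and 0.24, and for KHSRP and ELAVL1 0.11 and 0.04, with limma adjusted p from 0.484 to 0.927. After rescaling the libraries to 1 sum, ZFP36 (mean 1.01, adjusted p = 0.0132) and ZFP36L2 (mean -0.64, adjusted p = 0.0431) passed in limma. At this setting 316 genes were higher and 1294 lower of the 13971, against 46 and 33 above. This scaling lowered the median change of all genes from -0.04 to -0.15. With it the mean for ZFP36 was smaller than above, and its SE fell from 0.464 to 0.285. The ZFP36 changes stayed unlike, 2.30 in PC3 and -0.27 in 22Rv1. The SE for ZFP36L2 was 0.217. The total degrees of freedom of the fit, own and borrowed across genes, rose from 8.94 to 70.2, so the adjusted p-values of the 2 settings rest on unlike variance estimates.

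Without treatment, the lines differed at least 2-fold for 3 of the 7 genes, where 39% of 14352 genes did, 19.2% higher and 19.8% lower in PC3. ZC3H12A was higher in PC3 (1.95 log2 units, 3.87-fold). HNRNPD was lower in PC3 (-1.26, 2.39-fold), as was ZFP36 (-1.16, 2.24-fold). With 5 added in place of 1, ZC3H12A (0.89) and ZFP36 (-0.63) no longer passed 2-fold. ZFP36L1, ZFP36L2, ELAVL1 and KHSRP lay between -0.34 and -0.11. In limma's line term, the mean PC3 level over both treatments was higher for ZC3H12A (2.24, SE 0.221, adjusted p = 2.52e-05) and lower for HNRNPD (-1.32, SE 0.176, adjusted p = 0.000159), and 64.4% of all genes tested passed it. ZFP36 had a line term of 0.07 (limma adjusted p = 0.905), since its PC3 level was below 22Rv1 untreated and above it with morusin.

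FPKM is per length, so levels were set in order between genes, with counting error alone as the check. Changes with morusin fell with transcript length (-0.21 log2 units per doubling in 22Rv1 and -0.12 in PC3). The order between genes of unlike length, such as ZFP36 (1786 bases) and ELAVL1 (6015 bases), is therefore approximate. KHSRP and HNRNPD were the most abundant in all 4 libraries, KHSRP first except in treated 22Rv1. In untreated 22Rv1 ELAVL1, ZFP36L1, ZFP36L2, ZFP36 and ZC3H12A followed, with overlapping counting intervals for ELAVL1 and ZFP36L1. In treated 22Rv1 the order of these 5 was the same, and no neighbours overlapped. In untreated PC3 the order was ELAVL1, then ZFP36L1 and ZFP36L2 with overlapping intervals, then ZC3H12A, with ZFP36 last. In treated PC3 ZFP36L1 was above ELAVL1, and ZFP36 came level with ZFP36L2 within counting error, with ZC3H12A last.

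Together the 3 family members had 54.1 FPKM without and 40.8 with morusin in 22Rv1, and in PC3 the sum was 42.8 without and 82.2 with it. The treated PC3 library thus held the most family mRNA and the treated 22Rv1 library the least. ZFP36 made up 11.1% and 13.6% of the sum in untreated and treated 22Rv1, and 4.997% and 18.4% in untreated and treated PC3. ZFP36L2 made up 39.2% and 36.6% in 22Rv1, and 46.0% and 16.3% in PC3. The remainder, ZFP36L1, was 49.7%, 49.8%, 49.0% and 65.3% in the same order. In FPKM the ratio of ZFP36L1 to ZFP36L2 was 1.27 and 1.36 in 22Rv1, and 1.07 and 3.99 in PC3. The ratio of ELAVL1, which acts on similar elements, to the family sum was 0.518 and 0.636 in 22Rv1, and 0.591 and 0.353 in PC3. These ratios are of mRNA and were not corrected for the trend on transcript length, and protein was not measured.

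**Figure D4:**
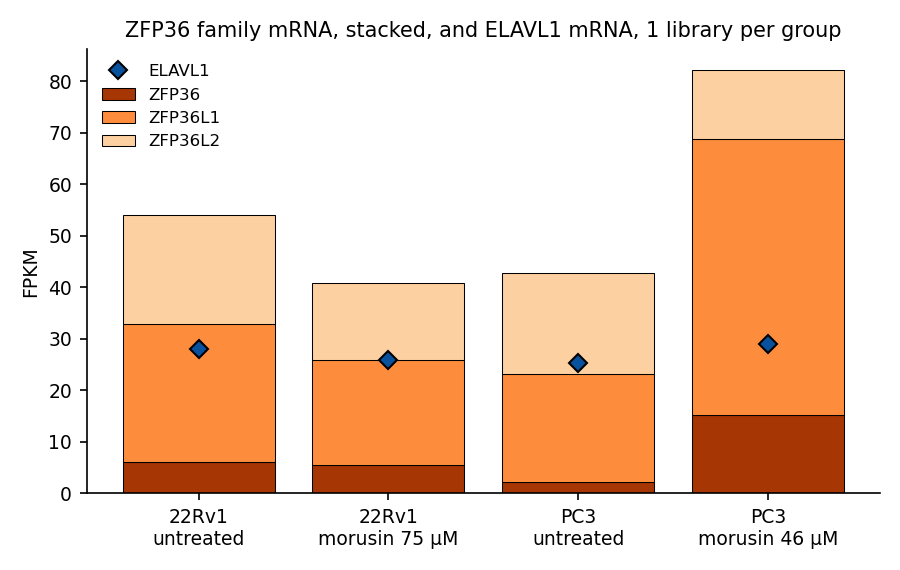
FPKM of ZFP36, ZFP36L1 and ZFP36L2 stacked in each library, with the ELAVL1 level as a diamond. The sum is 82.2 FPKM in treated PC3 and 40.8 to 54.1 in the other libraries, where ZFP36L2 makes up more of it.

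The genes whose profile over the 4 libraries lay nearest to that of ZFP36 were sought among 10448 genes that reached 5 FPKM in any library, by Euclidean distance of log2(FPKM + 1) centred on each gene's mean. The nearest was ATF3, a stress-induced transcription factor, at 10.8 and 10.7 FPKM in untreated and treated 22Rv1 and 5.40 and 29.5 in untreated and treated PC3 (distance 0.205). MIR616, whose locus overlaps the stress gene DDIT3, followed at 0.372, and HSPA5, the chaperone of the endoplasmic reticulum, at 0.619. The place of MIR616 is uncertain, since its counting SE was 1.21 log2 units in each line. JUND (0.785), a Jun family factor, and PSMA2 (0.788), a proteasome subunit overlapping MRPL32, completed the 5, and ZFP36L1 lay at 0.882. In 22Rv1 the changes of JUND and PSMA2 were 0.93 and -0.63, against -0.10 for ZFP36. Reads of the overlapping loci cannot be told apart, because the sources used here do not say whether strand was used.

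For ZFP36L1 the nearest were the mitochondrial rRNA MT-RNR1 (0.299), NFKBIA (0.305), the NF-kB inhibitor, and GLRX3 (0.410), a glutaredoxin. NFKBIA stood at 39.2 and 34.2 FPKM in 22Rv1 and 40.9 and 97.5 in PC3. Near ZFP36L2 lay CRK (0.0472) and CNNM4 (0.0553), and nearest to ZC3H12A were SEPTIN9 (0.0945), AGR2 (0.163) and ZNF703 (0.179). The 4 libraries fix these distances, so they describe these libraries only.

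Promoter windows of 250 bases before to 50 after the start were given by RefSeq (GRCh38.p14) for 5 of the 7 genes, in 6 windows, without entries for ELAVL1 and ZFP36L2. Both strands were searched for the cAMP response element TGACGTCA, the AP-1 site TGANTCA, the GC box GGGCGG, the NF-kB site consensus, the heat shock element core GAANNTTC and the TATA box TATAAA. These occur in 1.85%, 7.71%, 45.0%, 0.558%, 6.77% and 11.5% of 35116 windows of the same length. The promoters of the 2 genes higher in PC3 are shown. The ZFP36 window held 3 GC boxes, at 149, 76 and 52 bases before the start, and no match to the other 5 patterns. Capitals mark the GC boxes, read on either strand, in the bases upstream of the first annotated exon (plus strand).
ZFP36 promoter, chr19:39406597-39406812: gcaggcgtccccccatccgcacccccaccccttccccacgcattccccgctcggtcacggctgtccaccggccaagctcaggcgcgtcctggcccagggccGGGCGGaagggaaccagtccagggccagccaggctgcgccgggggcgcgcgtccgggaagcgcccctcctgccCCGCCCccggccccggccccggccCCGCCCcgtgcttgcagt

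Of the 2 ZFP36L1 windows, the downstream one held a cAMP response element 52 bases before the start and a heat shock element core 211 bases before it, and the other held no match. Capitals mark the cAMP response element, with 10 bases on each side (minus strand).
ZFP36L1 promoter site, chr14:68793451-68793478: gtggaatgagTGACGTCAcagccgcgct

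HNRNPD, KHSRP and ZC3H12A held 1, 2 and 5 GC boxes, and HNRNPD and ZC3H12A each a TATA box pattern. Thus ZFP36 and ZFP36L1 had no searched pattern in common, and a pattern that is missing from a window says nothing of the factor.

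The partners of these proteins were read from lists of the decay pathway, chosen by function and with earlier results of these data known. Of 24 other binders of AU-rich elements and stem-loops, 20 were measured in PC3 with 0 past 2-fold (3.86% of all genes; median -0.10), and 17 in 22Rv1 with 1 lower (1.02% of all genes; median -0.08). That gene was RC3H2 (Roquin-2), a stem-loop binder, at 11.3 and 4.80 FPKM in 22Rv1 and 12.9 and 6.73 in PC3. Among the others in PC3, the poly(C) binder PCBP1 was at 119 and 174 FPKM, PTBP1, a splicing regulator, at 121 and 177, and ZC3H12C, a relative of ZC3H12A, at 13.1 and 8.12.

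Of 23 genes of the deadenylase step, 22 were measured in PC3 with 3 lower (2.64% of all genes), and 23 in 22Rv1 with 1 lower (1.02%). The 3 in PC3 were TOB2 (12.0 and 4.57 FPKM) and TOB1 (29.8 and 12.9), adaptors that bring deadenylases to mRNA, and TNRC6A (11.0 and 4.85), a scaffold of microRNA silencing. CNOT1, the scaffold of the CCR4-NOT complex to which ZFP36 binds, was at 59.3 and 29.1 FPKM in 22Rv1 and 74.1 and 54.8 in PC3. The list's median was -0.43 in 22Rv1, the lowest of the 6 lists, and -0.08 in PC3. Its transcripts are long (median 4642 bases in 22Rv1), and after removal of the trend on length, -0.21 log2 units per doubling in 22Rv1 and -0.12 in PC3, the medians were -0.25 and 0.13. With that trend removed, CNOT1 (-0.68) and RC3H2 (-0.74) no longer passed 2-fold in 22Rv1, nor did TNRC6A (-0.76) in PC3. TNRC6A also fell short when changes were centred on the median of all genes (-0.98), and with 5 added in place of 1 none of the 3 passed in PC3.

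Of 20 decapping genes measured, 1 passed 2-fold in 22Rv1 (4.42% of all genes) and 0 in PC3 (3.86% of all genes). The 1 in 22Rv1 was the LSM ring subunit LSM7, higher at 128 against 61.4 FPKM. LSM7 did not pass with the length trend removed (0.54). The decapping scaffold EDC4 was at 37.0 and 43.5 FPKM in 22Rv1 and 25.8 and 16.1 in PC3. Below 0 but short of 2-fold in 22Rv1 were the helicase DDX6 (-0.92), the exonucleases XRN1 (-0.88) and XRN2 (-0.68), DCP1A (-0.86), GIGYF2 (-0.80) and the decapping enzyme DCP2 (-0.64). With the length trend removed they were -0.70, -0.51, -0.64, -0.65, -0.50 and -0.30. Above 0 in that line, next to LSM7, were LSM6 (0.55), EIF4E2 (0.44) and LSM4 (0.42). These were 0.46, 0.49 and 0.28 with the length trend removed. In all, 9 of the 20 were above 0 and 11 below in that line. DCP1A, a decapping activator, was at 7.47 and 4.54 FPKM in PC3, and PATL1, which bridges deadenylation and decapping, at 23.6 and 30.8. Of 16 exosome and helper genes, 0 passed in 22Rv1 (4.42% of all genes), and 1 was lower in PC3 (2.64% of all genes). That gene was HBS1L at 13.5 and 4.98 FPKM, which fell short of 2-fold with 5 added in place of 1 (-0.89). In 22Rv1 the catalytic subunits DIS3 (11.0 and 6.03 FPKM) and DIS3L (12.4 and 8.503) had lower values with morusin, and EXOSC5 (17.5 and 27.9) and the helicase SKIC2 (14.4 and 22.1) higher ones. With the length trend removed, DIS3 went from -0.77 to -0.38, DIS3L from -0.50 to -0.43, EXOSC5 from 0.64 to 0.33 and SKIC2 from 0.59 to 0.67.

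The p38 and MK2 kinases phosphorylate ZFP36 and hold it inactive, bound to 14-3-3 proteins, and the phosphatase DUSP1 switches p38 off. Of 18 genes of this control, DUSP1 alone passed 2-fold in PC3, where 3.86% of all genes did. It was at 5.71 FPKM untreated and 57.9 with morusin (3.13 log2 units). In 22Rv1, where 4.42% of all genes passed, 0 of the 18 did, and DUSP1 was at 4.24 and 4.67. The list's median was -0.04 in PC3 and -0.05 in 22Rv1. The kinase genes MAPK14 (p38 alpha) and MAPK11 (p38 beta) were at 13.7 and 10.1 and at 25.1 and 43.9 FPKM in 22Rv1. In PC3 MAPK14 was at 19.5 and 10.7 FPKM. The 14-3-3 gene YWHAG was at 106 and 82.0 FPKM in 22Rv1. Kinase activity and phosphorylation were not measured.

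Of 32 mRNAs with known AU-rich elements or described as ZFP36 targets, 28 were measured in PC3 with 10 at least 2-fold higher (1.22% of all genes) and 0 lower (2.64%), and 14 in 22Rv1 with 2 higher (3.4%) and 1 lower (1.02%). Their median was 0.61 in PC3 (all genes -0.05) and -0.27 in 22Rv1 (all genes -0.01). In PC3, 3 of the 28 reached 1 FPKM only with morusin (FOS, CCL20 and TNF), so for these the direction was set by that filter, and FOS and CCL20 are among the 10. The largest changes in PC3 were of the transcription factor JUN at 22.7 and 221 FPKM, DUSP1 as above, the kinase PIM1 at 5.09 and 30.9, and the chemokine CXCL3 at 16.3 and 81.0. The other 6 past 2-fold lay between 1.26 and 2.20 log2 units. In 22Rv1 JUN was at 10.3 and 44.5 FPKM and FOS at 0.784 and 6.30. These are the 2 higher there. For FOS the filter set the direction in this line as well, and its change was 0.97 with 5 added in place of 1. MYC was at 149 and 69.6 FPKM in 22Rv1 and at 65.7 and 219 in PC3, lower with morusin in the first line and higher in the other. Of the 26 AU-rich mRNAs tested in the shared limma fit, JUN (2.62, SE 0.275, adjusted p = 0.00327) and FOS (1.65, SE 0.221, adjusted p = 0.0135) passed. No gene of the other lists did, and 0.565% of all genes tested passed. FOS reached 1 FPKM only in the treated libraries of both lines, so the filter set its direction and its p-value is no support for a change.

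**Figure D5:**
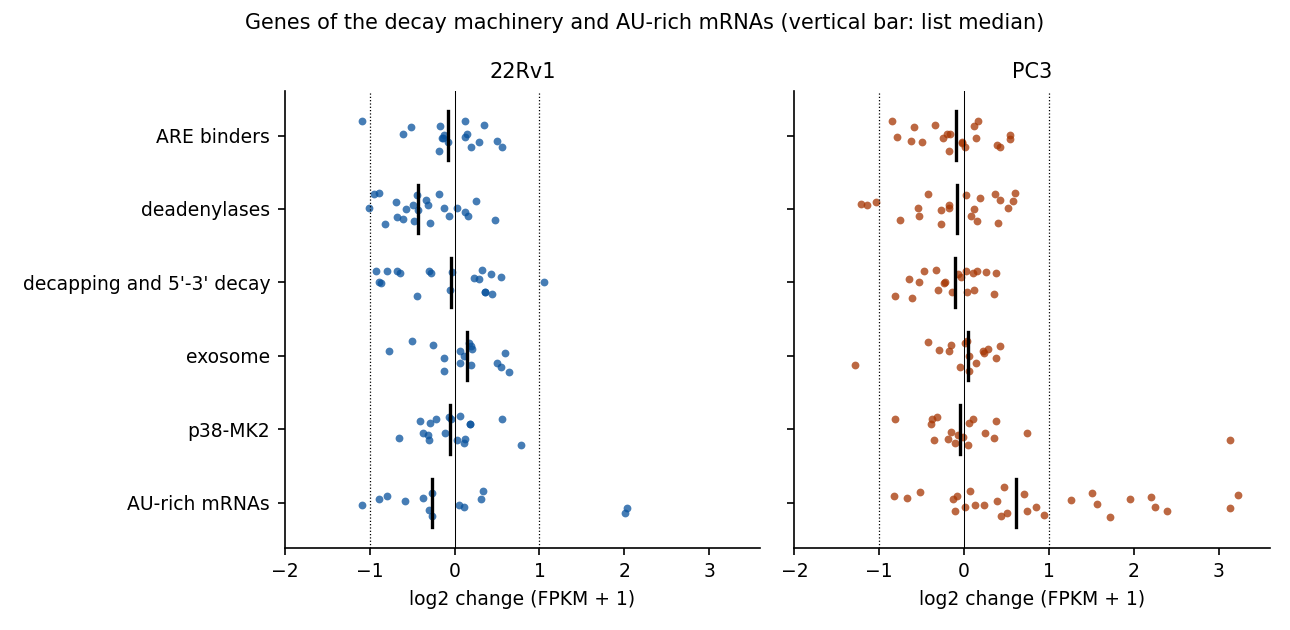
Change with morusin (log2 of FPKM + 1) of each measured gene of the 6 lists in 22Rv1 (left) and PC3 (right), with black bars for list medians and dotted lines at 2-fold. The AU-rich mRNAs in PC3 have a median of 0.61 and 10 genes past 2-fold higher, and the medians of the other lists lie between -0.43 and 0.15.

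In this list 27 of 32 genes held the heptamer and 17 the nonamer by the letter search above, against 28.8% and 7.51% of all 3′ UTRs. The list was chosen for AU-rich elements, so these counts follow from the choice. In PC3, 7 of 15 measured genes with the nonamer and 3 of 13 without it were 2-fold higher (1.22% of all genes). In 22Rv1 these were 1 of 6 and 1 of 8 (3.4% of all genes). FOS is among the 7 and CCL20 among the 3 in PC3, and FOS is the 1 of 6 in 22Rv1. For these the filter set the direction, as given above. The difference by nonamer was not tested. MYC, at a change of 1.72 in PC3, held 0 heptamers. Of the 4 leading genes, JUN held a heptamer without a nonamer, CXCL3 had 1 nonamer, DUSP1 had 2 and PIM1 had 3. Their sites are printed to compare with those of ZFP36. The DUSP1, CXCL3 and JUN sites come from the minus strands of chromosomes 5, 4 and 1, and PIM1 from the plus strand of chromosome 6.
DUSP1 at chr5:172768644-172768670, within a nonamer: ggctggtcctTATTTATttaacttcac
PIM1 at chr6:37174986-37175012, within a nonamer: gttatgtattTATTTATttatttattt
CXCL3 at chr4:74036774-74036800, within a nonamer: tgtcagttgtTATTTATtcaaattatc
JUN at chr1:58780820-58780846: tgcttatgaaTATTTATaacagcattc

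Across all measured genes the nonamer went with longer 3′ UTRs and, in both lines, with a lower median change. In PC3, 221 genes with 2 or more nonamers had a median change of -0.21, and 3.17% of them were 2-fold higher and 6.33% lower. The 10348 genes with none had a median of -0.04, with 0.763% higher and 2.32% lower. Median 3′ UTR lengths were 3774 and 1009 bases, and with the trend on transcript length removed the medians became 0.00 and 0.05. In 22Rv1 the 207 genes with 2 or more nonamers had a median of -0.28, or -0.06 with the trend removed. In that line 0.483% were 2-fold higher and 3.38% lower, against 2.25% and 0.748% of the 10293 genes with none. Whether these differences come from decay, synthesis or length was not tested.

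Overlapping and near-identical genes bore little on the 7. The highest FPKM of the antisense genes over ELAVL1 and HNRNPD were 0.000306 and 0.411, the highest of the KHSRP and HNRNPD pseudogenes was 0.0572, and the microRNA locus MIR3940 within KHSRP reached 2.44.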

How the data were processed

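The authors deposited FPKM values per Ensembl gene, with 1 column for each library. Per the labels' protocols, RNA was purified on columns, made into TruSeq RNA v2 libraries and read as pairs of 150 bases. The submitters' processing notes name HISAT2, StringTie and Trimmomatic, with GRCh38 as build. The sources used here give neither their versions, nor the annotation release, nor any use of strand. FPKM is relative to each library's total (sums of 335458 to 408628), so an abundant transcript moves all others.

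The 7 members and the 6 gene lists were chosen with earlier results of these data known, so counts over them are descriptions. FPKM are not counts, so no count model was used. Changes, the filter and the size threshold are given above with their pseudocount of 1 FPKM. The shared response was fitted with limma 3.58.1 (R 4.3.3; line and treatment terms, mean trend, genes reaching 1 FPKM in 2 or more of the 4 libraries, Benjamini-Hochberg adjustment at 0.05), and the script was tested on simulated data. The lines pair the libraries by their labels, so the line is the block in that fit. Nothing in the labels says how many cultures stand behind a library, and p-values measure only the spread between these libraries.

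Depth was estimated from the spacing of low values among single-exon genes, 600 to 5000 bases long (tolerance 1.5%). At 1 FPKM a 2 kb gene has an estimated 38.1 to 81.2 pairs. Symbols came from a gene name table that held 60261 of the 60617 IDs, positions, lengths and 3′ UTRs from GENCODE 29 on GRCh38, and promoters from RefSeq. The 3′ UTR is that of a principal transcript, the longest where several were marked. Genes named from a list had 5 FPKM or more in a library of the line and were past 2-fold there, at most 4 a list and line by size. For a list with none, the 2 largest changes each way were named. Some are also given in their other line. CCL20, TNF, DDIT3, MRPL32, DDX6, XRN1, XRN2, GIGYF2, DCP2, LSM6, EIF4E2 and LSM4 were named after their values were seen. A few further genes chosen this way are not reported here. Alternatives were other pseudocounts, scalings, filters and variance priors. Python 3.11.15, numpy 2.4.6, pandas 2.3.3 and matplotlib 3.10.9 were used.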

Additional observations from a re-analysis of the deposited data

Results flagged for a closer look

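For some genes named above the treated library differed from the untreated one in opposite directions in the lines, and each is given as the PC3 change minus the 22Rv1 change in log2(FPKM + 1). None of these differences was tested, since each line has 1 library per treatment. Among the RNA binders they were 2.46 for ZFP36, 1.70 for ZFP36L1 and 0.30 for ELAVL1. The ELAVL1 change in 22Rv1 was -0.11 and turned to 0.11 with the length trend removed, and the interval of the ZFP36 change in 22Rv1 spans 0.

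Among the genes nearest in profile they were 2.26 for ATF3, 2.05 for PSMA2, 1.42 for NFKBIA, 1.248 for MT-RNR1, 0.58 for ZNF703 and 0.55 for SEPTIN9. In 22Rv1 the ATF3 change of -0.0090 turned to 0.0019 when centred on the median of all genes, and that of SEPTIN9 from -0.064 to 0.058 with the length trend removed. All 6 gaps follow in part from the choice of genes by likeness to ZFP36, ZFP36L1 and ZC3H12A. In the decay lists MYC differed by 2.81, PTBP1 by 0.67, PATL1 by 0.65 and DIS3L by 0.56, its PC3 change turning from 0.061 to -0.029 after rescaling. Here EDC4 (-0.88), SKIC2 (-0.88) and the p38 gene MAPK11 (-0.94) went the other way, with the PC3 change the lower.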

How the results depend on the processing

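Over 161 recomputed changes, gaps and line differences of the 7 genes, 153 kept their sign, 116 moved by less than the 95% counting range of their log2 ratio and none past 2-fold changed sign. The setting without a filter is among them and leaves each value as it was, so those values were the same by construction. The gaps are differences of changes that are also counted. With 0.1 added in place of 1, genes 2-fold higher and lower numbered 827 and 376 in 22Rv1 (453 and 136 in the main setting) and 257 and 679 in PC3 (158 and 340), 8 list genes were lower in 22Rv1 (3), and ZFP36 in PC3 was 2.76. With 5 added they were 150 and 33 in 22Rv1, 73 and 85 in PC3, and 1419 and 1321 between the untreated lines (2749 and 2846). Then 1 list gene was lower in 22Rv1 and 0 in PC3 (4), 1 AU-rich mRNA was higher in 22Rv1 (2), and 0 members were higher and 1 lower in untreated PC3. ZFP36 and ZFP36L1 in PC3 were at 1.49 and 1.17. After rescaling, 244 and 350 genes passed in 22Rv1, 9 list genes were lower there, and ZFP36L1 in PC3 was 1.22. With the length trend removed, 254 genes were higher in 22Rv1 and 210 lower in PC3, 1 list gene was lower in 22Rv1, and ZFP36L1 in PC3 was 1.41. The cause of these shifts was not tested, apart from the added value itself, which damps low genes.

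The shared limma test called 46 genes higher and 33 lower. It called 18 and 15 with 5 added, 316 and 1294 after rescaling (2 of the 7 members, with ELAVL1 at -0.10 and KHSRP at -0.033, reversed), 0 and 0 without a filter (2333 at an unadjusted p under 0.05), 84 and 124 with 1 FPKM in all 4 libraries, where ZC3H12A is not tested, 27 and 24 without the mean trend, and 95 and 33 with each library centred on its median, an alternative chosen after seeing the data. Without the replicate block, the line term, it called 0 and 0 (53 at an unadjusted p under 0.05). Replicate numbers only name the libraries, and the lines pair them. No library could be left out, since each group holds 1. Depth limits ZC3H12A in 22Rv1, at an estimated 42.9 and 36.2 pairs.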
